A study of Mus musculus with 8 samples.

Results

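The vacuolar ATPase (V-ATPase) and cathepsin genes were followed in melanocyte precursors sorted from mouse skin. Genes were taken by symbol from the array annotation, those beginning Atp6v or Atp6ap and those named Cts plus 1 letter, with the probe set of the highest mean kept where a gene had several. This gave 43 genes of 22180 measured, 25 by the V-ATPase symbols and 18 cathepsins. One of the 25, Atp6v1fnb, is a neighbour of Atp6v1f and not a pump subunit. The proteolipid gene Atp6v0c and the a3 subunit gene Tcirg1 are outside the 43, the first for want of a row with a single symbol and the second by its name.

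The V-ATPase is a proton pump with a cytosolic V1 sector that splits ATP and a membrane V0 sector that carries protons, and it acidifies endosomes, lysosomes and lysosome-related organelles. Cathepsins are proteases, most of which mature and work at the low pH the pump makes. Melanosomes, where pigment cells make melanin, are lysosome-related organelles, and their pH affects tyrosinase, the enzyme that starts melanin synthesis. Transcription factors of the MiT family (Mitf, Tfeb, Tfe3 and Tfec) bind an E-box in the promoters of many lysosomal genes.

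Each of 8 arrays was hybridised with amplified cDNA from GFP-positive, p75-negative cells of whole skin. P21_KO holds 4 arrays from mice of 21 days with both B-raf and C-raf floxed on both copies (fl/fl each). P21_WT holds 2 arrays from mice of 21 days, and P4_WT 2 arrays from mice of 4 days, both wild type (+/+) for B-raf and for C-raf. All 3 groups carried Tyr::Cre, which drives recombination from the tyrosinase promoter, the Z/EG reporter that turns on GFP after recombination, and a mixed C57Bl/6 and 129/Sv background. The floxed alleles came from 129/Sv and the transgenes from C57Bl/6, so genotype and strain background cannot be fully told apart. The labels call the cells melanocyte stem cells at 21 days and melanoblasts at 4 days. The floxed alleles are recombined only where Cre acts. The knockout is thus limited to cells with past or present tyrosinase promoter activity and their descendants. The labels call the arrays of a group biological replicates, but 3 of the 4 P21_KO arrays share a number in their names whose meaning is not stated, so whether they are unrelated animals is not known, and p-values measure only the spread between these samples.

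Values are log2 RMA values, on which 1 unit is a doubling of signal, and the median over all genes and arrays was 3.37. Braf, a target of the knockout, read 5.66 to 6.57 in P21_KO against 5.99 and 7.20 in P21_WT, so its probe set did not separate the genotypes. The 14 measured melanosome genes averaged 5.35 to 6.25 per array in P21_KO, 6.78 and 6.64 in P21_WT, and 8.55 and 8.36 in P4_WT, so pigment cell genes were read on every array. P4_WT replicate 2 stood apart in markers of other cells. Its mean over 14 macrophage and dendritic markers was 5.07 and over 7 mast cell markers 4.56, against at most 3.41 and 2.38 on the other arrays, and its endothelial mean was 5.87 against at most 3.68. P4_WT replicate 1 had the highest mean of hair shaft and root sheath markers, 6.10, against 4.05 in P4_WT replicate 2 and at most 2.76 at 21 days. Schwann cell markers, 5 measured, were high on every array, at 8.86 to 9.25 in P21_KO, 8.90 and 8.95 in P21_WT, and 7.73 and 7.51 in P4_WT. Keratinocyte markers, 9 measured, averaged 6.57 to 7.95 over all arrays, and fibroblast markers, 8 measured, 5.52 to 6.39. The part of these other cells in the age and genotype results was not tested. In such bulk samples, fewer cells of a type and less RNA per cell cannot be told apart.

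The MiT factors recognise the E-box CACGTG, and TCACGTGA holds that core with the flanks common in lysosomal promoters. Promoter windows of RefSeq (build GRCm38.p6, from 250 bases before to 50 after each start) were found for 32 of the 43 genes. Both words read the same on both strands, and every TCACGTGA contains a CACGTG. TCACGTGA lay in the windows of 5 of the 32 genes, 15.6%, while 1.125% of all 27025 genes with a window held it. CACGTG lay in 8 of the 32, 25.0%, against 8.093% of all genes. The longer GTCACGTGAC was in none of the 32 and in 0.37% of all genes. CATGTG, searched on both strands, was in 4 of the 32, 12.5%, and in 15.885% of all genes. A match is a description of the letters and not a test of binding. The stretch around the first match is shown for these 5 genes, since it is what their promoters share beyond the symbol, 5′ to 3′ on the strand of the gene, with the first TCACGTGA in capitals. The Ctsa stretch holds a second copy, left in lower case, that begins 4 bases after the start.
Atp6v0d1 (chr8:105566031-105566098, minus strand): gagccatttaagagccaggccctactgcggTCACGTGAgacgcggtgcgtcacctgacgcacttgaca
Atp6v0e (chr17:26676368-26676435, plus strand): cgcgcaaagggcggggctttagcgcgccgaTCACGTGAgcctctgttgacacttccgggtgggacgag
Atp6v1a (chr16:44139354-44139421, minus strand): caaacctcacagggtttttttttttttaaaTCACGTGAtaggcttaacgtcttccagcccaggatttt
Ctsa (chr2:164833730-164833797, plus strand): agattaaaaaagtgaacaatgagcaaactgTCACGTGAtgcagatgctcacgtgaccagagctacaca
Ctsd (chr7:142387889-142387956, minus strand): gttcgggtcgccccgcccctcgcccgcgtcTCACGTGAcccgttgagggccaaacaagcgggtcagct

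The age comparison (P21_WT minus P4_WT) sets the stem cells of 21 days against the melanoblasts of 4 days. Most of the 43 genes that read well above the floor were at lower values in P21_WT, mostly by less than 1 log2 unit. Cathepsin H was the 1 gene of the 43 called, at an adjusted p under 0.05 over all genes in limma, while 1.61% of all genes were called, 0.852% lower and 0.757% higher. The fitted change was below 0 for 34 of the 43 genes, 79.1%, against 49.8% of all genes, with a median of -0.32 against 0.00. At an unadjusted p under 0.05 there were 12 lower and 1 higher, where 7.46% and 5.17% of all genes passed. Lists and medians are given as descriptions.

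Of the 16 widely used V-ATPase isoforms and accessory proteins, 15 were measured, and all 15 had a fitted age change below 0, from -1.18 to -0.06 with a median of -0.49. Both P21_WT arrays lay below both P4_WT arrays for 13 of the 15, where 22.1% of all genes did so. The mean over the 15 genes was 6.66 and 6.69 in P21_WT, against 7.24 and 7.20 in P4_WT, so the groups did not overlap. None of the 15 passed the threshold singly. Of the 18 of 43 genes with a mean of 6 or more, 17 were below 0 (94.4%), against 55.9% of 3121 genes of that level. Their median was -0.45, against -0.08 for all genes of that level.

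**Figure D1:**
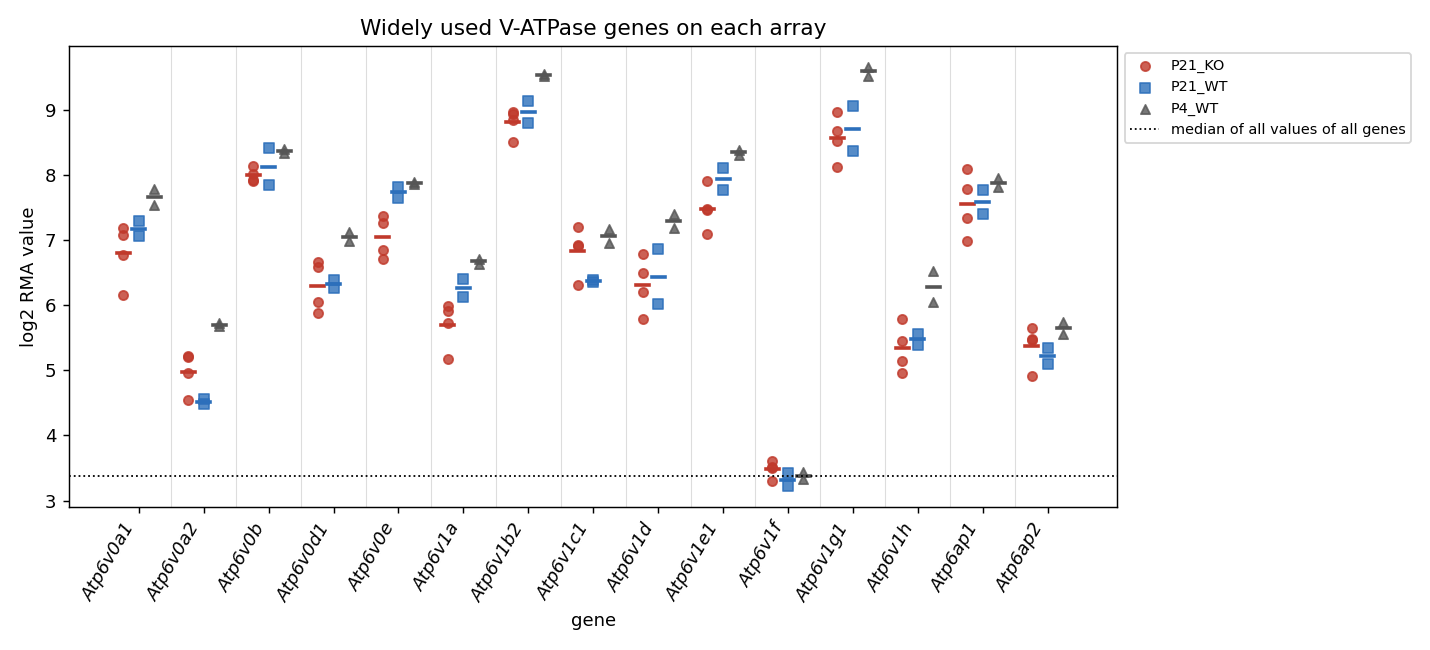
Log2 RMA value (y axis) of the 15 measured widely used V-ATPase genes (x axis) on each array of P21_KO (circles, 4 arrays), P21_WT (squares, 2) and P4_WT (triangles, 2), with group means as lines and the median of all values, 3.37, dotted. The P4_WT arrays are both above all 6 P21 arrays for Atp6v0a2, Atp6v0d1 and Atp6v1b2, among others, and Atp6v1f reads near the median of all values in every group.

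Within the membrane sector, Atp6v0a2 had the smallest p. It encodes the a2 subunit, an anchor of the V0 sector found on Golgi and endosomal membranes. It read 5.20, 4.54, 4.95 and 5.22 in P21_KO, 4.56 and 4.47 in P21_WT, and 5.68 and 5.72 in P4_WT. All P21 arrays were below both P4_WT arrays, and the P21_KO arrays ran from within the P21_WT range upward. The age change was -1.18 ± 0.24 (SE), just short of the threshold (limma adjusted p = 0.0565). The call was made in 3 of the 19 alternative fits, where the adjusted p ran from 0.028 to 0.213.

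The membrane sector's d2 isoform, Atp6v0d2, is best known from osteoclasts and macrophages. It read 1.87, 1.84, 1.82 and 1.82 in P21_KO, 3.49 and 2.04 in P21_WT, and 5.65 and 3.54 in P4_WT. The 4 P21_KO arrays were alike and below the median of all values, while both wild-type groups were spread by over 1 unit. Its age change was -1.83 ± 0.64 (SE; limma adjusted p = 0.265). Without P4_WT replicate 2 the change was -2.88 and was called (limma adjusted p = 0.048), and without replicate 1 it was -0.77 (adjusted p = 0.703). The 6 osteoclast markers averaged 2.61 to 2.84 on all 8 arrays, and Ocstamp, Calcr, Dcstamp, Oscar and Mmp9 read below 3.37 on each. The sixth, Acp5, read 3.20 to 3.56 in P21_KO, 3.84 and 3.85 in P21_WT, and 3.99 and 2.95 in P4_WT, highest on the array where Atp6v0d2 was highest. The macrophage and dendritic mean was 2.95 on P4_WT replicate 1, where Atp6v0d2 was highest. Hair shaft and root sheath markers were also highest there, and the part of any of these cells in the result was not tested.

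The V1 sector holds the ring that splits ATP and the stalks that brace it. Atp6v1b2, the nucleotide-binding B2 subunit, read 8.85, 8.93, 8.97 and 8.51 in P21_KO, 8.79 and 9.14 in P21_WT, and 9.55 and 9.51 in P4_WT. Its age change was -0.57 ± 0.21 (SE; limma adjusted p = 0.291). Atp6v1g1, a peripheral stalk subunit, read 8.67, 8.12, 8.52 and 8.96 in P21_KO, 8.36 and 9.05 in P21_WT, and 9.65 and 9.52 in P4_WT. Both genes were highest on the P4_WT arrays with no overlap. The age change of Atp6v1g1 was -0.88 ± 0.31 (SE; limma adjusted p = 0.257). Other probe sets exist for both genes, 2 in all for Atp6v1b2 and 3 for Atp6v1g1, and each read higher on both P4_WT arrays than on any P21 array.

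The catalytic A subunit gene Atp6v1a read 5.91, 5.98, 5.17 and 5.72 in P21_KO, 6.41 and 6.12 in P21_WT, and 6.63 and 6.71 in P4_WT. The groups stood in that order without overlap. Atp6v1e1, a stalk subunit gene, read 7.90, 7.09, 7.45 and 7.47 in P21_KO, 7.76 and 8.10 in P21_WT, and 8.30 and 8.38 in P4_WT, where the P21 groups overlapped. The age changes were -0.41 ± 0.27 for Atp6v1a and -0.41 ± 0.26 for Atp6v1e1 (SE; limma adjusted p = 0.636 and 0.607). Among the remaining V1 genes, Atp6v1d was at -0.86, Atp6v1h at -0.81 and Atp6v1c1 at -0.70.

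Of the other V0 genes, Atp6v0b, a proteolipid subunit gene, read 8.01, 7.92, 8.13 and 7.90 in P21_KO, 8.41 and 7.83 in P21_WT, and 8.40 and 8.33 in P4_WT. Its age change of -0.25 ± 0.21 (SE) was within the spread of the P21_WT arrays (limma adjusted p = 0.744). Atp6v0e, a small membrane subunit gene, read 7.36, 6.84, 6.71 and 7.26 in P21_KO, 7.65 and 7.81 in P21_WT, and 7.85 and 7.90 in P4_WT. It was much alike in both wild-type groups and lower on all P21_KO arrays. Its close relative Atp6v0e2 ran the other way, at 7.32, 7.17, 6.74 and 7.68 in P21_KO, 6.50 and 6.64 in P21_WT, and 6.50 and 6.32 in P4_WT. The age changes were -0.15 ± 0.24 and 0.16 ± 0.28 (SE; limma adjusted p = 0.898 and 0.907).

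The 9 isoforms known mainly from particular tissues, such as kidney, bone, testis or nerve, had a median age change of -0.08, with 5 of 9 below 0. Averages over the 8 arrays were 6.86 for Atp6v0e2, 4.05 for Atp6v1e2 and 4.00 for Atp6v1g2, and Atp6v0d2 was well above the median of all values on 1 array. RMA understates changes near the floor. Over all 43 genes, 31 read above 3.375 on at least 2 arrays. The accessory genes Atp6ap1 and Atp6ap2, whose products help the pump assemble, are on the X chromosome and were at -0.29 and -0.43.

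Cathepsin H, an aminopeptidase of lysosomes, had the smallest p. Ctsh read 4.51, 4.14, 4.33 and 3.81 in P21_KO, 4.81 and 4.90 in P21_WT, and 6.28 and 6.51 in P4_WT. The 3 groups did not overlap, and the gap between P21_WT and P4_WT was larger than the range within any group. Ctsh fell by 1.54 on the log2 scale (± 0.24 SE, 2.90-fold; limma adjusted p = 0.0213) in P21_WT relative to P4_WT. The call was lost without either P4_WT array or either P21_WT array (adjusted p from 0.0522 to 0.123) and with the 2 wild-type groups alone (0.0681), while the change stayed between -1.65 and -1.42 over all 19 alternatives.

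Cathepsin Z, a carboxypeptidase, read 6.34, 5.48, 5.78 and 5.73 in P21_KO, 6.04 and 6.29 in P21_WT, and 7.27 and 7.12 in P4_WT. Cathepsin C, which activates granule serine proteases, read 6.26, 5.79, 6.73 and 6.03 in P21_KO, 6.30 and 6.57 in P21_WT, and 7.27 and 7.20 in P4_WT. For both, the P21 groups overlapped each other and lay below P4_WT. The age changes were -1.03 ± 0.27 for Ctsz and -0.80 ± 0.29 for Ctsc (SE; limma adjusted p = 0.126 and 0.278). Cathepsins Z, C and H are abundant in immune cells. The macrophage and dendritic mean was 2.95 and 5.07 on the P4_WT arrays, and hair shaft and root sheath markers were raised on both, at 6.10 and 4.05 against at most 2.76 at 21 days. The part of either in these results was not tested.

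Of the general proteases of the lysosome, Ctsd, Ctsb and Ctsa differed less by age, while the change of Ctsl was close to that of Ctsc. Ctsd, the main aspartic protease, read 8.97, 8.85, 8.56 and 8.78 in P21_KO, 8.99 and 9.05 in P21_WT, and 9.49 and 9.21 in P4_WT. Ctsb, an endopeptidase, read 7.48, 7.54, 6.90 and 7.65 in P21_KO, 7.74 and 7.63 in P21_WT, and 8.14 and 7.87 in P4_WT. In both genes P4_WT was highest without overlap, but their age changes of -0.33 ± 0.19 and -0.32 ± 0.26 (SE) were not called (limma adjusted p = 0.557 and 0.719). Ctsa, a serine carboxypeptidase that also shields other hydrolases, read 7.79, 7.53, 7.49 and 7.11 in P21_KO, 7.73 and 7.62 in P21_WT, and 8.16 and 7.83 in P4_WT. Ctsl, an endopeptidase, read 7.45, 8.35, 7.83 and 7.86 in P21_KO, 8.24 and 7.56 in P21_WT, and 8.57 and 8.78 in P4_WT. Their age changes were -0.32 ± 0.24 and -0.77 ± 0.32 (SE; limma adjusted p = 0.684 and 0.353).

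Of the 18 cathepsins 5 had an age change above 0, and for 4 of them, Ctso, Ctsk, Ctsg and Ctsr, P21_WT lay wholly above P4_WT, where 21.4% of all genes did so. Ctsk was at 0.48, Ctsg at 0.35 and Ctsr at 0.29, and Ctso, a little-studied cysteine protease gene, had the smallest p of the 4. Ctso read 4.48, 4.22, 4.31 and 4.00 in P21_KO, 4.80 and 4.73 in P21_WT, and 4.35 and 4.10 in P4_WT. P21_WT was highest without overlap, and P21_KO and P4_WT shared one range. Its age change was 0.54 ± 0.20 (SE; limma adjusted p = 0.285).

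**Figure D2:**
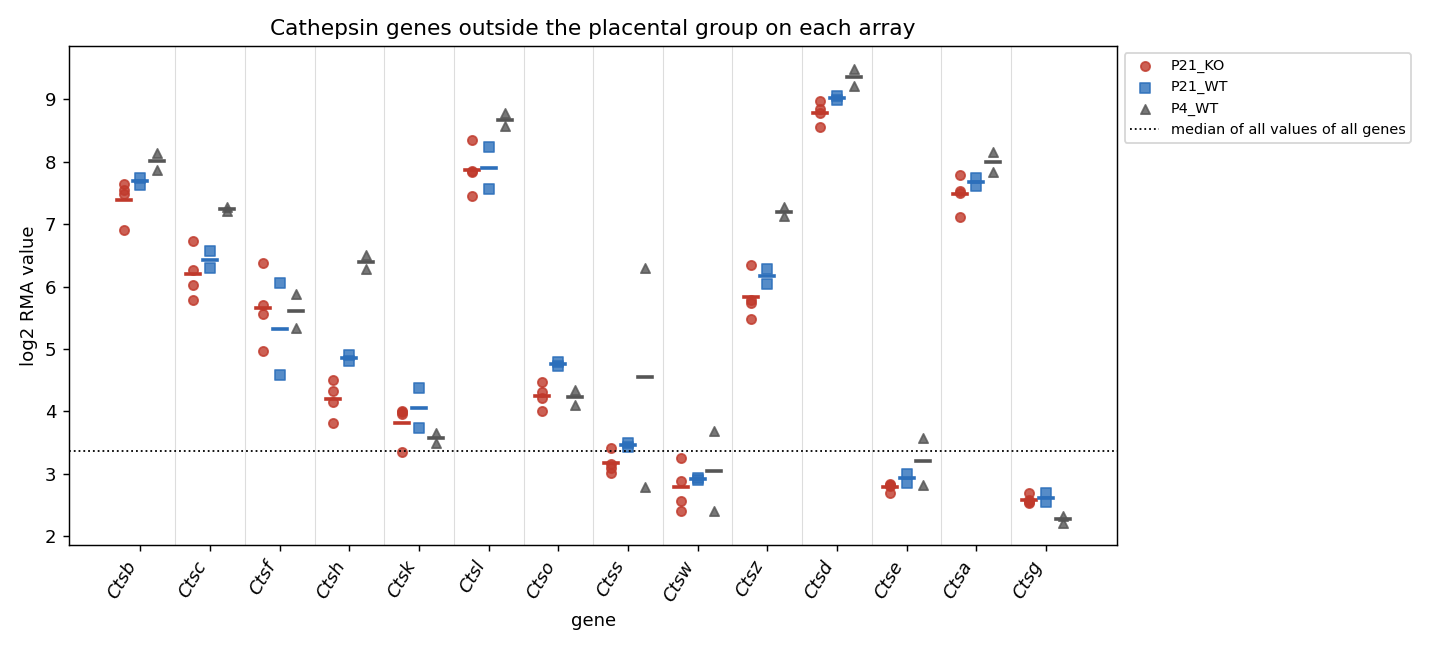
Log2 RMA value (y axis) of the 14 cathepsin genes outside the placental group (x axis) on each array of P21_KO (circles, 4 arrays), P21_WT (squares, 2) and P4_WT (triangles, 2), with group means as lines and the median of all values dotted. Ctsh shows 3 separate groups, and Ctss is high on 1 P4_WT array only.

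Cathepsins of particular blood and bone cells read low. Cathepsin S, which cuts the invariant chain in antigen-presenting cells, read 3.09, 3.41, 3.15 and 3.02 in P21_KO, 3.49 and 3.43 in P21_WT, and 2.79 and 6.30 in P4_WT. Only P4_WT replicate 2, the array with high macrophage and mast cell markers, stood out. The age change of Ctss was -1.09 ± 0.88 (SE; limma adjusted p = 0.719), and it was 0.66 (adjusted p = 0.296) without P4_WT replicate 2 and -2.84 (adjusted p = 0.00296) without replicate 1. Ctss is 1 of the 18 cathepsins, but its array values are printed because they were seen to stand out, not by the rule used for the other genes. Cathepsin K, of osteoclasts and fibroblasts, lies beside Ctss on chromosome 3 and did not share its pattern, at 3.66 and 3.49 in P4_WT. Ctsg, a granule protease gene, read 2.22 to 2.70 on all arrays, P4_WT replicate 2 included. Ctse, an aspartic protease gene, read 2.70 to 3.57 and Ctsw, of cytotoxic lymphocytes, 2.41 to 3.69. Ctsf, a lysosomal cysteine protease gene, varied from 4.59 to 6.38 with an age change of -0.29 ± 0.54 (SE). The 4 placental cathepsins averaged 1.88 to 2.10 per array.

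**Figure D3:**
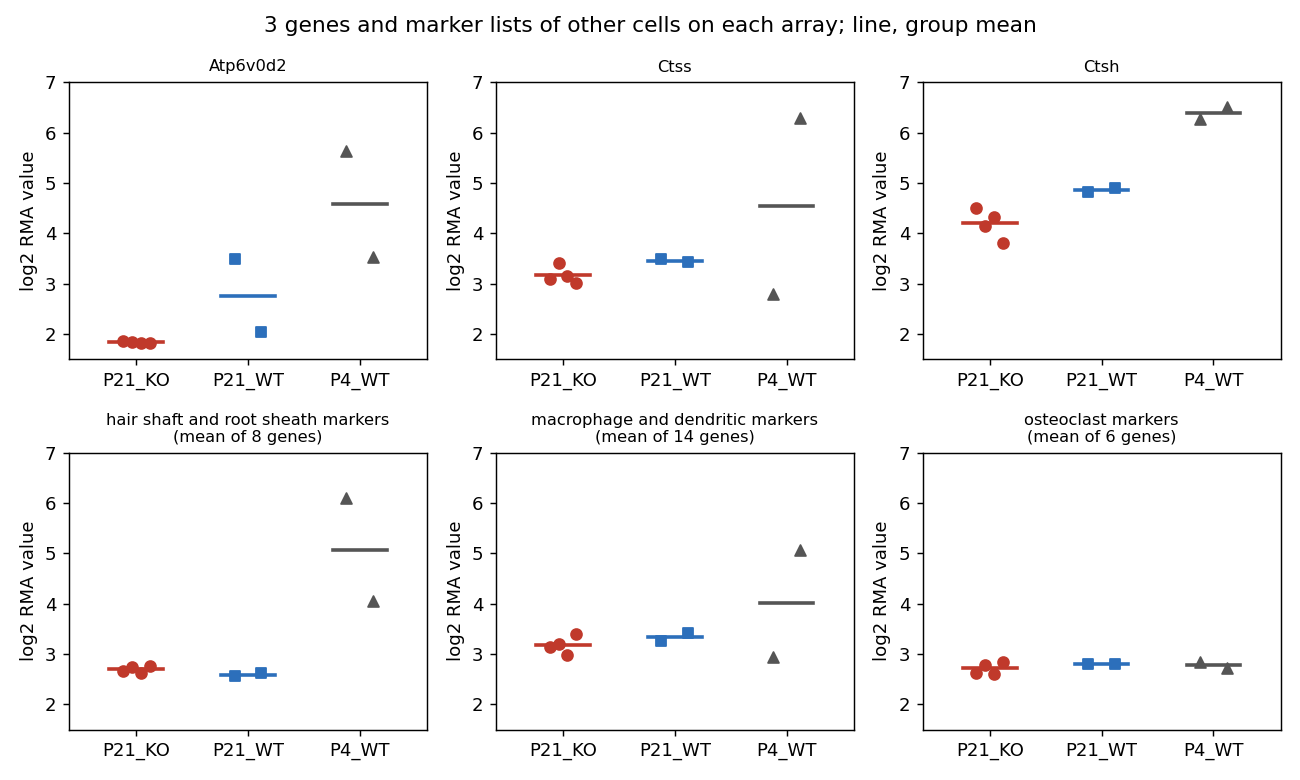
Log2 RMA value (y axis) on each array for Atp6v0d2, Ctss and Ctsh (top) and mean over marker lists of other cells (bottom), by group (x axis: P21_KO, 4 arrays; P21_WT, 2; P4_WT, 2), with group means as lines. Ctss and the macrophage and dendritic mean, 5.07, are both highest on the same P4_WT array, while Ctsh is alike on both P4_WT arrays and osteoclast markers stay between 2.61 and 2.84.

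The genotype comparison (P21_KO minus P21_WT) asks which genes of the stem cells differ with loss of B-raf and C-raf. Limma called 0 of the 43 genes, as it called 0% of all genes. At an unadjusted p under 0.05, 4 of the 43 were lower and 1 was higher, where 3.69% and 2.84% of all genes passed (6.52% in either direction). Of the 43 genes 31 were below 0, 72.1%, against 48.6% of all genes. The median was -0.12, against 0.01 for all genes. The P21_KO arrays lay wholly below P21_WT for 9 of the 43 and wholly above for 1, where 7.64% and 7.75% of all genes did so.

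Cathepsins leaned lower by genotype, and pump genes less so. Of the 18 genes of both families with a mean of 6 or more, 16 were below 0 (88.9%), against 51.3% of genes of that level. The widely used V-ATPase genes had a median of -0.13, with 11 of 15 below 0, and their mean was 6.77, 6.60, 6.39 and 6.51 in P21_KO against 6.66 and 6.69 in P21_WT, so the groups overlapped. Of the 14 cathepsins outside the placental group 13 were below 0, with a median of -0.23. Their mean was 5.28, 5.29, 5.13 and 5.11 in P21_KO, against 5.35 and 5.48 in P21_WT. There the groups did not overlap, though they were separated by less than the range within P21_KO.

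The smallest p-values among lower genes were those of Atp6v0e, at -0.68 ± 0.21 (SE; limma adjusted p = 0.609), and Ctsh, at -0.66 ± 0.21 (SE; limma adjusted p = 0.616). The confidence interval at 95% ran from -1.16 to -0.21 for Atp6v0e and from -1.13 to -0.18 for Ctsh, before any adjustment over genes. Ctso was at -0.51 ± 0.17 and Atp6v1a at -0.57 ± 0.24 (SE; limma adjusted p = 0.65 and 0.755). Atp6v0e2 was the higher gene, at 0.66 ± 0.24 (SE; limma adjusted p = 0.712), so the e1 and e2 isoforms of one subunit differed in opposite directions, neither past the threshold. Atp6v0a2 was at 0.46 ± 0.21 (SE; limma adjusted p = 0.785).

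**Figure D4:**
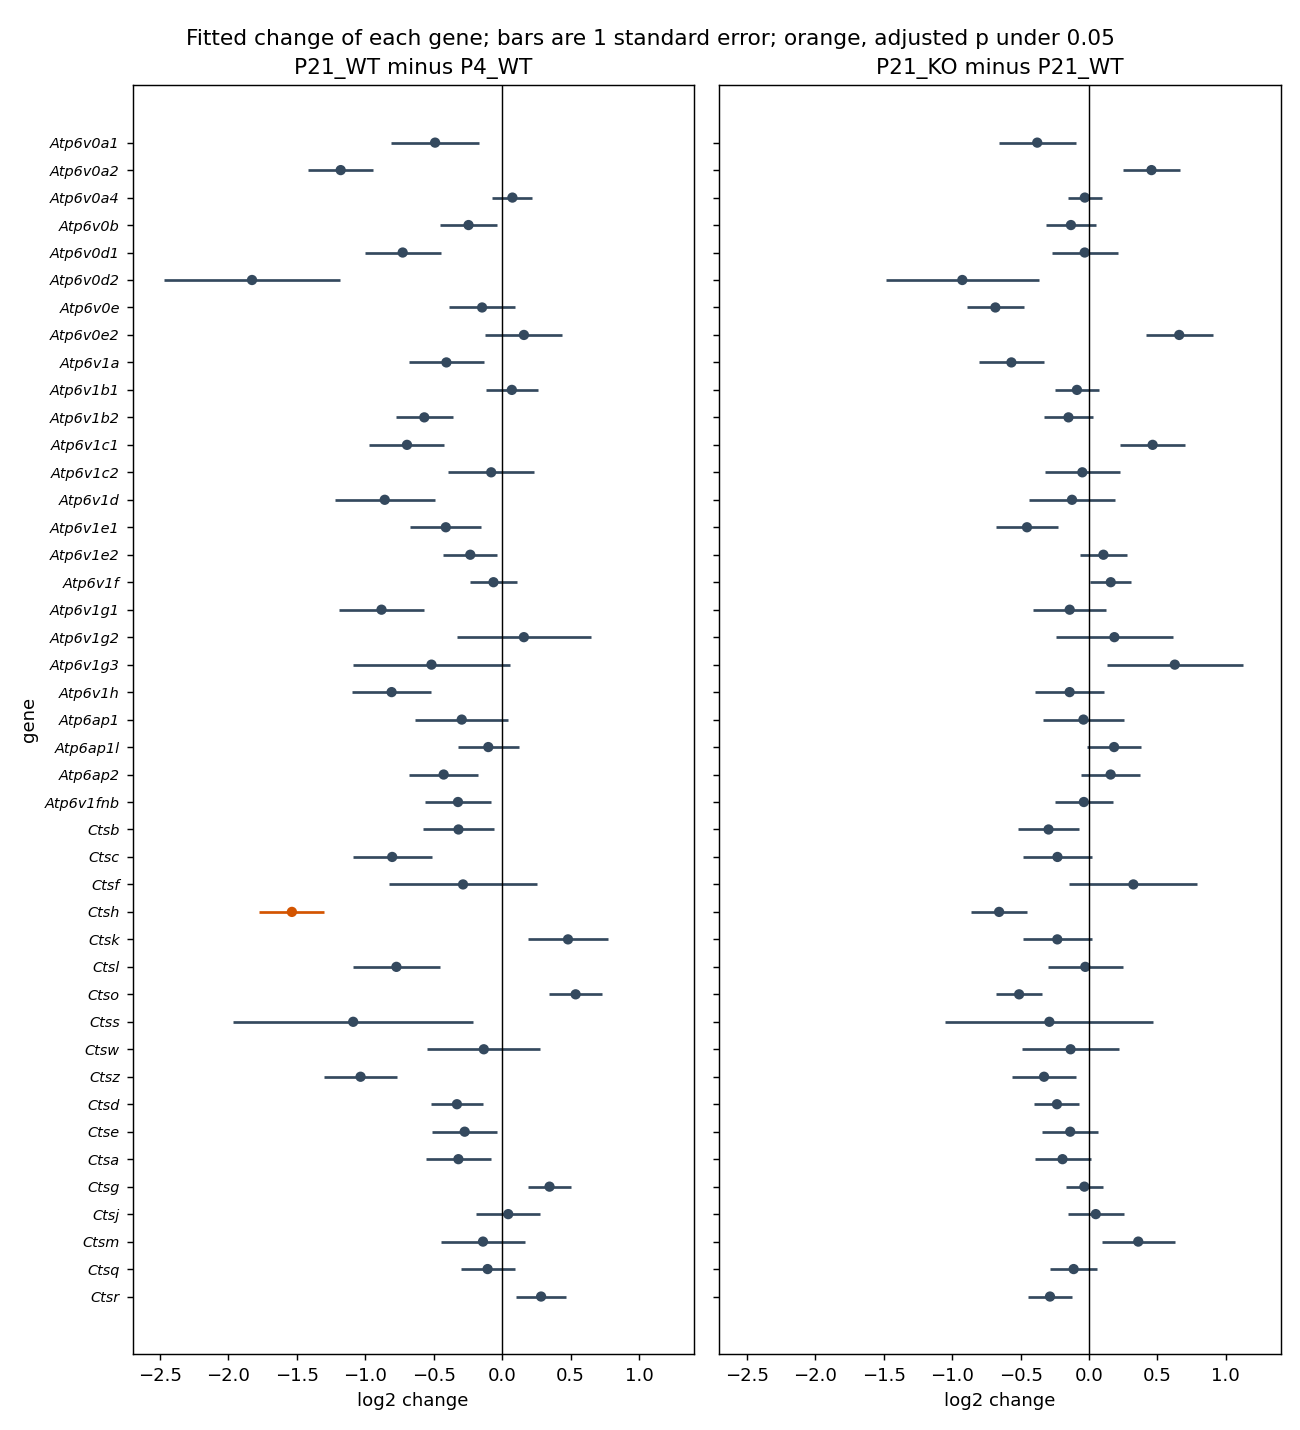
Fitted log2 change (x axis) of each of the 43 genes (y axis, by sector and protease class) for P21_WT minus P4_WT (left) and P21_KO minus P21_WT (right), with bars of 1 standard error from the limma fit. Ctsh (orange) is the 1 gene past the threshold on the left, 34 of the 43 points there lie below 0, and no gene is past it on the right.

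P21_KO and P4_WT differ in age and genotype at once, which cannot be told apart in this pair, and the comparison shares its arrays with both others. It serves to place the 3 groups. In P21_KO 7 of the 43 genes fell past the threshold (16.3%) and 0 rose, where limma called 4.68% of all genes lower and 3.05% higher. At an unadjusted p under 0.05 there were 18 lower and 2 higher, where 12.4% and 8.1% of all genes passed. Among genes with a mean of 6 or more, 5 of 18 members (27.8%) were called lower, against 9.55% of all genes of that level. The fitted change was below 0 for 30 of the 43 genes, 69.8%, against 47.3% of all genes.

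The 7 were Ctsh, Ctsz, Ctsc, Atp6v0d2, Atp6v1a, Atp6v0e and Atp6v1b2. Ctsh fell by 2.19 on the log2 scale (± 0.21 SE, 4.57-fold; limma adjusted p = 0.000883), and kept its call in all 19 alternatives. Ctsz fell by 1.36 ± 0.23 (SE; limma adjusted p = 0.0112), a call lost without P4_WT replicate 1 (0.0756) or replicate 2 (0.0551). The d2 gene Atp6v0d2 fell by 2.75 ± 0.56 (SE; limma adjusted p = 0.0219), or by 1.70 without P4_WT replicate 1 (adjusted p = 0.0966), and the call was also lost without P21_KO replicate 2 (0.0502) or replicate 3 (0.0551). The other 4 fell by 0.72 to 1.03, close to the threshold (limma adjusted p from 0.0429 to 0.04999), and each kept the call in at most 8 of 19 alternatives. With its other probe set Atp6v1b2 was at -1.04. Atp6v1g1, at -1.02, was just short of the threshold (limma adjusted p = 0.0561). With its probe set of the lowest mean it was at -0.91 and was called (limma adjusted p = 0.0093).

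Both P4_WT arrays were above all 6 P21 arrays for 18 of the 43 genes, 41.9%, where 11.3% of all genes showed that order. They were 11 V-ATPase genes, among them Atp6v0a1, Atp6v1d and Atp6v1h, and the 7 cathepsins A, B, C, D, H, L and Z. The opposite order held for 1 of the 43, Ctsg, against 9.46% of all genes, with values below the median of all values throughout.

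Other genes of the lysosome were read for the same arrays. Of 32 lysosomal hydrolases 27 were measured, and 20 had an age change below 0, against 49.8% of all genes, with a median of -0.51. Past the threshold 2 fell, Smpd1, the acid sphingomyelinase, by 2.18 and Manba, a beta-mannosidase, by 1.13 (limma adjusted p = 0.0493 and 0.0493). Both calls sat at the threshold, and each was kept in 5 of 19 alternatives. Of all genes 0.852% were called lower by age. Man2b1, an alpha-mannosidase, was at -1.22 and Acp2, an acid phosphatase, at -1.16 by age. In P21_KO relative to P4_WT 22 of the 27 were below 0, against 47.3% of all genes. Past the threshold 9 fell, where 4.68% of all genes did so. Man2b1, 1 of the 9, fell by 1.81 (limma adjusted p = 0.00325). By genotype 12 of the 27 were below 0, against 48.6% of all genes, and none passed.

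Lysosomal membrane proteins differed less by age, with 14 of 19 below 0, a median of -0.11 and none called. Of all genes 49.8% were below 0 by age. Tmem192 was at -0.82, Npc2, a soluble cholesterol carrier kept in this list, at -0.57, and the chloride-proton exchanger gene Clcn7 and its partner Ostm1 at -0.89 and -0.58. The Ragulator and Rag GTPases, which tie the lysosome and its pump to mTORC1, had a median of -0.68, with 8 of 10 below 0. Among them Lamtor4 fell by 1.22 (limma adjusted p = 0.0427, kept in 6 of 19 alternatives), and Lamtor2 was at -0.83. In P21_KO relative to P4_WT 3 of the 19 membrane genes and 2 of these 10 fell past the threshold, where 4.68% of all genes did so. Assembly factors and partners of the V-ATPase had a median age change of -0.07, with 6 of 11 below 0 and none called. Their list mean was still higher in P4_WT, at 4.68 and 4.71, than in P21_WT, at 4.54 and 4.59, or P21_KO, at 4.33 to 4.60. The a3 subunit gene Tcirg1 in that list was at -0.24. Receptors and adaptors that sort hydrolases to the lysosome were split 5 and 5 by age with none called, and in P21_KO relative to P4_WT Gga2 fell by 1.58 and Igf2r by 1.67 (limma adjusted p = 0.0219 and 0.0203). None of these lists had a gene called by genotype. The list means of the sorting genes and of the MiT factors overlapped between P4_WT and the P21 arrays.

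**Figure D5:**
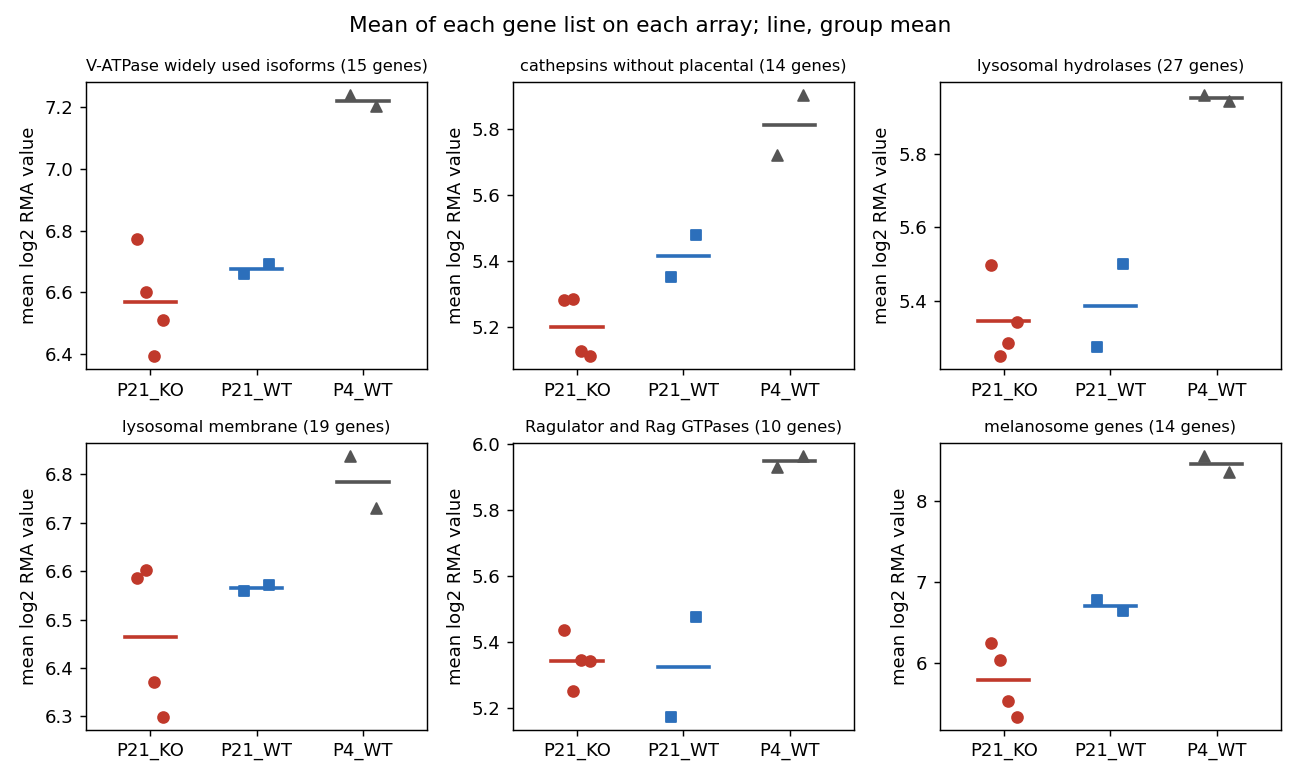
Mean log2 RMA value (y axis, a separate scale in each panel that does not start at 0) over 6 gene lists on each array, by group (x axis: P21_KO, 4 arrays; P21_WT, 2; P4_WT, 2), with group means as lines. The 6 lists are widely used V-ATPase genes, cathepsins outside the placental group, hydrolases, lysosomal membrane, Ragulator and Rag GTPases, and melanosome genes. In all 6 lists both P4_WT arrays lie above all P21 arrays. In the melanosome list P21_KO, at 5.35 to 6.25, also lies below P21_WT, at 6.78 and 6.64. The cathepsin list shows that order too, at 5.11 to 5.29 in P21_KO against 5.35 and 5.48 in P21_WT.

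Of the melanosome genes all 14 were below 0 by age, with a median of -1.34, and 4 fell past the threshold, Oca2 by 4.70 and Gpr143 by 2.71 among them. Of all genes 49.8% were below 0 by age and 0.852% were called lower. By genotype all 14 were below 0, against 48.6% of all genes, with a median of -0.72 and none called. The genotype median was -0.13 for the 15 widely used V-ATPase genes and -0.23 for the 14 cathepsins outside the placental group. Over all 25 V-ATPase genes and all 18 cathepsins it was -0.04 and -0.21. Tyr read 6.36, 5.90, 5.39 and 5.02 in P21_KO, 7.88 and 7.27 in P21_WT, and 9.59 and 9.44 in P4_WT. These lists were chosen with results of these data known, and the difference between them was not tested.

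None of the 4 MiT factors was called by age, though all 4 were below 0, against 49.8% of all genes. P21_WT lay wholly below P4_WT for 2 of the 4, Mitf and Tfeb, where 22.1% of all genes did so. Mitf, the lineage regulator, read 7.53, 7.61, 6.62 and 6.46 in P21_KO, 7.88 and 7.79 in P21_WT, and 8.09 and 8.19 in P4_WT. Its age change was -0.30 and its genotype change -0.78 (limma adjusted p = 0.858 and 0.766). Tfeb was at -0.49 and Tfe3 at -0.07 by age, and at 0.09 and 0.20 by genotype, none called. Tfec read below 3.37 on every array.

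Of the 12 cathepsin inhibitors none was called by age or by genotype. Stfa1 and Stfa3, stefin A genes of a family of near-identical copies whose probes may share signal, had wide ranges. Stfa3 read 3.54, 1.99, 2.11 and 6.57 in P21_KO, 7.36 and 6.61 in P21_WT, and 10.03 and 9.67 in P4_WT. P21_KO replicate 4 read close to P21_WT and far from the other P21_KO arrays. In P21_KO relative to P4_WT Stfa3 fell by 6.30 and Stfa1 by 5.58 (limma adjusted p = 0.0134 and 0.0023), the Stfa3 call being lost without P4_WT replicate 1 (0.0819) or replicate 2 (0.0684). Cystatin C (Cst3), a secreted inhibitor, was at 0.35 by age and -0.09 by genotype, and Cst6, an epidermal cystatin, at 1.90 and -1.73. Without P21_WT replicate 2 the Cst6 changes were 2.77 by age, which limma called (adjusted p = 0.0271), and -2.60 by genotype, and without P21_WT replicate 1 they were 1.04 and -0.87, neither called. Keratinocyte markers averaged 7.19 to 7.95 in P21_KO, 7.90 and 7.65 in P21_WT, and 7.27 and 6.57 in P4_WT, and their part in the inhibitor values was not tested.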

How the data were processed

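The authors deposited log2 values. The submitters' processing notes name RMA and Affymetrix Expression Console, with versions not given in the sources used here. RMA subtracts background, equalises the arrays' distributions and compresses differences near the floor. The number of arrays limits the precision. Of 41345 rows 23521 had 1 gene symbol, and the probe set with the highest mean was kept for each of 22180 genes. A model with 3 groups was fitted to all genes of all 8 arrays with limma 3.58.1 (R 4.3.3), with 5 residual degrees of freedom. P-values are two-sided, with Benjamini-Hochberg adjustment across the 22180 genes. The fit was tested on simulated data, with independent arrays and a small share of genes changed in each comparison in turn. Recovery varies with the share of genes changed and need not be the same in the real data. Of changes of 1 log2 unit it recovered 23% by age, 40% by genotype and 37% in P21_KO minus P4_WT. Of changes of 2 units it recovered 75%, 83% and 84%. A gene left uncalled can therefore still differ by 1 unit. The genes and lists were chosen with earlier results of these data known. Array values are given for genes called in any comparison, the 6 with the smallest p by age and by genotype, and the 4 V-ATPase and 4 cathepsin genes with the highest mean. From the other lists, up to 4 genes with the smallest p were taken. Tcirg1, Mitf, Tfeb, Tfe3, Tyr and Braf were always taken. Alternatives are given in the closing section. Same-numbered arrays of different groups did not deviate together (r from -0.04 to 0.01), so the numbers were not taken as pairs.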

Additional observations from a re-analysis of the deposited data

Results flagged for a closer look

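In P21_KO, the 1 group with enough arrays for a check of single arrays, 43 genes and 30 list means were examined for an array far from the others. Chance alone marks about 1 in 20 such groups. Ctsk was low on P21_KO replicate 3, at 3.34 against 3.95 to 4.00 on the others. The placental cathepsin gene Ctsq was high on that array, at 1.88 against 1.59 to 1.64, all near the floor. The mean of mast cell markers was low on P21_KO replicate 1, at 2.13 against 2.26 to 2.29, also near the floor.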

How the results depend on the processing

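Each result was refitted under 19 alternatives (11 of processing or model, and 8 that each left out 1 array), and counts were also taken at an adjusted p under 0.10. No gene of the 43 was called by genotype under any of them. The count lower by age, 1, became 0 with only the 2 groups compared and with a replicate block, and 2 with array weights, with dim genes left out and at 0.10. It ranged from 0 to 2 when an array was left out. In P21_KO minus P4_WT the count lower, 7, became 4 with only the 2 groups compared, 3 after quantile normalization, 3 after cyclic loess, 1 with the replicate block and 12 at 0.10, and ranged from 2 to 6 when an array was left out. The count higher, 0, became 1 at 0.10 and ranged from 0 to 1. The median V-ATPase change in that pair was -0.72 with dim genes left out, a smaller set of genes. The replicate numbers did not pair the arrays, and the block kept 8 of 28 calls on named genes. The causes of these shifts were not tested.

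Of 2394 refitted values of named genes, 2164 kept direction and call status, 162 lost the call, 26 gained it and 42 changed sign. These values came from 126 results, of which only 28 were called in the reported fit and so had a call to lose. By age, Ostm1 was at 0.0277 with its lowest probe set and Tfe3 at 0.0271 after quantile normalization. By genotype, the replicate block gave Cst3 0.014, Ctsl 0.0011, Gpr143 0.0484 and Tcirg1 0.19. Manba was at 0.0278 after quantile normalization, 0.0161 after loess and 0.0126 with arrays centred. Tcirg1 was at 0.0027 with array weights, 0.0335 after quantile normalization, 0.0091 after loess and 0.0075 with arrays centred. Smpd1 was at -0.22 with its lowest probe set. Leaving out 1 array gave these ranges by age: Atp6v0b -0.53 to 0.0422, Ctss -2.84 to 0.66 and Tfe3 -0.24 to 0.10. By genotype they were Atp6v0b -0.42 to 0.16, Atp6v1b2 -0.32 to 0.0233, Atp6v1g1 -0.49 to 0.20, Braf -0.94 to 0.27, Ctsl -0.36 to 0.31, Gpr143 -0.52 to 0.13 and Lamtor2 -0.23 to 0.0298. Further genotype ranges were Manba -0.16 to 0.14, Smpd1 -0.044 to 1.31, Tcirg1 -0.11 to 0.0684, Tfe3 -0.0098 to 0.37 and Tfeb -0.21 to 0.40. In P21_KO minus P4_WT they were Cst6 -0.20 to 0.54, Ctso -0.10 to 0.15, Ctss -3.13 to 0.37 and Tfe3 -0.0799 to 0.26.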
